A study of Mus musculus with 6 samples.

Results

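Chromatin accessibility at the genes for chemokines and their receptors was described in Beko, a mouse pre-T cell line in which the Notch pathway is active unless inhibited. The genes were all protein-coding genes of the GENCODE vM1 annotation whose symbol is Ccl, Ccr, Cxcl, Cxcr, Xcl, Xcr, Cx3cl or Cx3cr followed by a number, with Ccr7, Ccr9 and Cxcr4 left out. The rule used gene symbols and no measured value, and it gave 54 of 22284 coding genes, which were 37 ligands and 17 receptors. Cxcl11 is not typed as protein-coding in this annotation and was therefore not among them.

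ATAC-Seq, in which a transposase cuts and tags open DNA, had been performed in 6 libraries of Beko cells that fell into 2 groups. The cells of 3 libraries (GSI) were exposed to DAPT for 24 h, an inhibitor of γ-secretase, the enzyme that frees the intracellular part of Notch. Cells of the other 3 libraries (DMSO) received the solvent for 24 h. Both groups were the same single line with its constitutive Notch activity, and the labels do not say whether replicates were separate cultures. The values analysed here were the positions of 32527 accessible intervals (peaks) in 1 list that the authors merged over all 6 libraries. The list has no value per library and no height, so GSI against DMSO was not analysed here, no replicate error can be given, and the depth behind a peak is unknown. The intervals printed with shares are 95% Wilson intervals and cover counting error over genes or peaks only. A site open in part of the cells and a site weakly open in all cells cannot be told apart in such a list.

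Chemokines are small secreted proteins that guide migrating cells, and they are grouped by the spacing of their first cysteines into the CC, CXC, XC and CX3C classes. Their receptors span the membrane as G protein-coupled receptors and signal through inhibitory G proteins towards phosphoinositide 3-kinase and small GTPases of the Rac and Rap families. In the thymus, stromal cells make Cxcl12, Ccl25, Ccl19 and Ccl21, and developing T cells read them through Cxcr4, Ccr9 and Ccr7. Many inflammatory chemokine genes are silent until a stimulus reaches the cell, and most lie in clusters of related genes.

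A gene was said to have a start peak when a peak lay within 1 kb of any of its annotated transcript starts. Start peaks were found at 5 of the 54 genes, among them the receptors Cxcr7, Ccr4 and Cxcr6 and the ligand Ccl25. The peak of Ccl25 is shared with the neighbouring gene Elavl1. For Cxcr7, Ccr4 and Cxcr6 no other gene started within 1 kb of the peak, and the 300 bases around each start are shown because these start regions carry an accessible peak of their own. Each runs 5′ to 3′ on the strand of the gene from 200 bases before the start to 99 bases after it, and was read from the mouse assembly NCBIM37, which is the build mm9 of the peak list. Capitals mark matches to 9 short motifs searched on both strands. For RBPJ, the DNA-binding factor of the Notch pathway, the word was TGGGAA. A looser RBPJ form includes this word and also TGAGAA. The AP-1 word was TGANTCA, the E-box CAGCTG and the SP word GGGCGG. The RUNX word was TGTGGT, the GATA word AGATAA and the ETS word CGGAAG, and NF-kB sites were the last. NF-kB and RBPJ matches may overlap each other.

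Cxcr7, chr1:92100355-92100654, plus strand: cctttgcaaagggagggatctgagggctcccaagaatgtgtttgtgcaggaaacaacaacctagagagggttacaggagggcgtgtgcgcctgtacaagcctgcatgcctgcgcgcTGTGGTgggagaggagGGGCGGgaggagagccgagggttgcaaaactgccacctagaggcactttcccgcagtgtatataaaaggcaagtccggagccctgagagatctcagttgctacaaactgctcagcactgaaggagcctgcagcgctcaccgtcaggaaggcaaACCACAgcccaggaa
Ccr4, chr9:114405563-114405862, minus strand: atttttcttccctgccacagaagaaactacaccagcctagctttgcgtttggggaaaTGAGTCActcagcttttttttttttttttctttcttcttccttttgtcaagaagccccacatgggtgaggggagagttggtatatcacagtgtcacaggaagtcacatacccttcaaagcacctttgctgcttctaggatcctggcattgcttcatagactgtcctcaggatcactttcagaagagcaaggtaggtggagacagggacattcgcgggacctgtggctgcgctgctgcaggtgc
Cxcr6, chr9:123715395-123715694, plus strand: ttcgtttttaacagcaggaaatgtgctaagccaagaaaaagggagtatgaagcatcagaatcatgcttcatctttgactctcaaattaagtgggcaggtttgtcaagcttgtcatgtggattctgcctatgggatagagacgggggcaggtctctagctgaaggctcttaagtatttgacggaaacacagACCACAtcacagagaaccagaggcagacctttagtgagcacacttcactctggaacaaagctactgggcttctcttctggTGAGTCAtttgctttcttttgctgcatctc

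None of the 3 start regions held TGGGAA, which was found in the same 300-base stretch of 24.1% of all 54 genes and of 23.3% of all coding genes. With the start counted as 0, the region of Cxcr7 held a RUNX match from -84 to -79 and a SP match from -68 to -63, and a RUNX match on the other strand from 85 to 90. In Ccr4 the only match was AP-1 from -143 to -137. The region of Cxcr6 held a RUNX match on the other strand from -10 to -5 and an AP-1 match from 70 to 76. A match is a run of letters and does not show that a factor was bound. The GC content fell in order from 57.3% in Cxcr7 through 48.0% in Ccr4 to 45.0% in Cxcr6. In each of the 3, all 300 bases lay inside the peak.

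In all 5 genes with a start peak, an annotated start lay inside the peak. Cxcr7, an atypical receptor that binds Cxcl12 and removes it, had a peak of 433 bp at chr1:92100342-92100774, and both of its transcripts start there. Ccr4, the receptor for Ccl17 and Ccl22 on T cells, had the widest of the 4 unshared start peaks of the family, 764 bp at chr9:114405269-114406032. Its longer transcript starts inside the peak and its shorter coding transcript 113 bp from it. The peak of Cxcr6, the receptor for Cxcl16, was 424 bp wide at chr9:123715369-123715792. It lay within an intron of Fyco1, which runs on the other strand. Median widths were 428 bp for the 4 unshared peaks, 855 bp for the 11522 start peaks of the whole list, and 736 bp for the 3372 start peaks of coding genes with a CpG-poor start.

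The only ligand with a start peak was Ccl25, the thymic and intestinal ligand of Ccr9. Its peak of 1027 bp at chr8:4324614-4325640 also covered the start of Elavl1, an RNA-binding protein gene that runs in the opposite direction. The starts of 8 annotated Ccl25 transcripts, between 4325210 and 4325241, lay inside this peak. The other 2 Ccl25 transcripts, both coding, start at 4349588, which is 20556 bp from the nearest peak. Whether the peak belongs to Ccl25, to Elavl1 or to both cannot be told apart in the list.

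The share of the family with a start peak was 9.26% (4.02 to 19.9%), compared with 47.0% of all coding genes. Starts were also split by sequence composition, since CpG-rich starts are open in many cell types. Composition was taken over 500 bp on either side of the annotated 5′ end of each gene only. A start was called CpG-rich if GC was 50% or more and CpG reached 0.6 of the frequency that base content predicts. A start peak may lie at another annotated start, whose composition was not measured, and the shares of coding genes include such genes. Only 4 of the 54 genes had a CpG-rich start, the ligands Cxcl12, Cxcl14, Cxcl16 and Ccl25, which is 7.41% compared with 44.2% of all coding genes. Of coding genes with a CpG-rich start 76.2% had a start peak, and of those with a CpG-poor start 23.9%. Among the 50 chemokine and receptor genes with a CpG-poor start, 4 had a start peak, and the interval of this share (3.15 to 18.8%) lay below the 23.9%.

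By role, start peaks were found at 4 of 17 receptors, 23.5% (9.56 to 47.3%), and at 1 of 37 ligands, 2.70% (0.479 to 13.8%). These intervals overlap. Among CC receptors 2 of 9 genes had a start peak, among CXC receptors 2 of 6, and among the XC and CX3C receptors 0 of 2. For ligands the counts were 1 of 23 in the CC class, 0 of 12 in the CXC class and 0 of 2 in the XC and CX3C classes. The receptor share was close to the 23.9% of CpG-poor coding genes, and all 17 receptors had a CpG-poor start. The 3 receptors that the rule left out, Ccr7, Ccr9 and Cxcr4, all had a start peak. Counting them would raise the shares of the receptors and of the family.

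**Figure D1:**
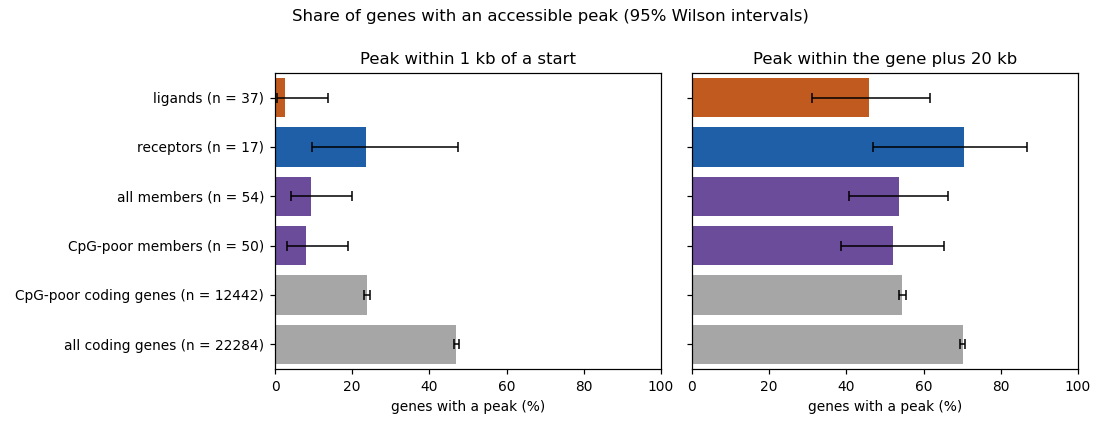
Share of genes (percent, horizontal axis) with a peak within 1 kb of a start (left) or within the gene plus 20 kb (right) for ligands, receptors, the whole family, its CpG-poor genes and the coding genes. Lines are 95% Wilson intervals. The bars of the family lie below those of coding genes on the left (9.26% against 47.0%), and on the right receptors (70.6%) lie at the level of all coding genes (70.2%).

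Peaks were next counted over each gene with 20 kb on either side. Such a peak was found for 29 of the 54 genes, 53.7% (40.6 to 66.3%), compared with 70.2% of all coding genes and 54.5% of coding genes with a CpG-poor start. The share over this wider stretch was thus close to that of CpG-poor coding genes, whereas the share at starts was lower. The window grows with the length of the gene, and the median length was 4761 bp in the family, 15468 bp over all coding genes and 9478 bp over CpG-poor coding genes. Of receptors 12 of 17 had a peak in this window, 70.6% (46.9 to 86.7%), and of ligands 17 of 37, 45.9% (31.0 to 61.6%). Median gene lengths were 7250 bp for receptors and 3122 bp for ligands.

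The windows held 52 different peaks. Of these, 4 were start peaks of a member of the family alone, 1 was the shared Ccl25 and Elavl1 peak, and 11 (21.2%) lay at the start of another gene. The remaining 36 were distal, meaning more than 1 kb from every annotated start. Over the whole list, 21005 of 32527 peaks were distal by the same measure and 11522 lay within 1 kb of a start. Peaks were thus mostly distal in the list as well. The distal peaks of the family were centred between genes in 21 cases (40.4%), in introns in 9 (17.3%) and in exons in 6 (11.5%). No such split is given here for the whole list. Distal peaks of the family were 268 to 805 bp wide with a median of 412 bp, and the 21005 distal peaks of the list had a median of 465 bp. The 11 peaks at starts of other genes had a median of 864 bp. Because neighbouring windows overlap, 4 peaks counted for 2 members and 1 for 3. In peaks per Mb of covered sequence, receptor windows held 34.8, ligand windows 17.9, and the windows of all coding genes 19.4. The receptor value rests on 26 peaks, of which 7 lay in the window of Cxcr5 and several others at starts of neighbouring genes.

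Cxcr5, the receptor that draws lymphocytes into B-cell follicles, had 7 peaks in its window, the most of any gene in the family, yet none at its start. All 7 were distal. The widest distal peak of the family, 805 bp at chr9:44323364-44324168, lay in the Cxcr5 intron, 10336 bp from the start. Downstream of the gene followed peaks of 720 bp at chr9:44318201-44318920 and 637 bp at chr9:44302917-44303553. The latter lay 3666 bp from a start of Bcl9l, a coactivator gene of the Wnt pathway. Bcl9l also had the nearest start to the 720-bp peak, at 10982 bp, and to a downstream peak of 273 bp, at 4583 bp. Upstream, the nearest peak was 495 bp wide at chr9:44341163-44341657, 6659 bp from the Cxcr5 start. The 3 other peaks were 273, 316 and 444 bp wide.

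Ccl1, a T-cell chemokine that binds Ccr8, had 4 distal peaks and no start peak. Its gene spans 129034 bp in the annotation because of 1 non-coding transcript, whereas the coding transcripts are at most 3156 bp long. A peak of 706 bp at chr11:81991328-81992033 lay in an intron of the coding part, 1281 bp from the coding start, which was the shortest distance of any member without a start peak. A peak of 747 bp at chr11:81996663-81997409 lay 3347 bp upstream of the coding start, and one of 568 bp at chr11:82027813-82028380 lay 34497 bp upstream. The 5′ end of the non-coding transcript was 90812 bp from the nearest peak. Of the 4 peaks, 3 lay within 5 kb of the coding start. Ccr8 itself had no start peak and 2 peaks in its window, 1 of them at the start of Slc25a38, a mitochondrial carrier gene.

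Cxcl17, a protein of mucosal tissues counted among the CXC ligands by its symbol, had 6 peaks in its window. Peaks at chr7:26187656-26188196 (541 bp, coding exon) and of 360 bp in an intron lay inside the gene. Of the others, 2 lay at starts of Lipe, the gene for hormone-sensitive lipase, and a peak of 691 bp at chr7:26164573-26165263 lay in a Lipe UTR. Ccr10, the receptor for Ccl27, had 4 peaks, of which 3 lay at starts of Tubg2, Cntnap1 or Plekhh3. Its own peak of 370 bp lay in the coding exon, 1367 bp from the start. Most of the peaks counted for Ccr10 and 2 of those counted for Cxcl17 were thus start peaks of neighbours.

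Cx3cr1, the receptor for Cx3cl1 on myeloid cells, had 3 distal peaks, the widest being 569 bp at chr9:119939341-119939909 and another lying in its intron. The peak upstream of Cx3cr1 was the same one that lay 7297 bp upstream of Ccr8. Ccl17, a Ccr4 ligand, had 3 peaks, including one of 469 bp at chr8:97336610-97337078, 2257 bp from the start and 675 bp beyond the end of the gene. The 2 others lay in exons of Ciapin1. Ccr4 had 2 upstream peaks in addition to its start peak, 358 and 352 bp wide and 1735 and 13260 bp from the start. Cxcr6 also had 2 more, 1 in a Fyco1 intron and 1 at a start of Gm17021. Ccl5, made by activated T cells, had a single peak of 525 bp at chr11:83363561-83364085, 19541 bp upstream.

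The remaining genes with a peak had 1 or 2. Cxcr7 had a second, 268-bp peak in its UTR, and Ccl25 and Ccl21c had 2 peaks each. A single peak of 382 bp at chr11:81861515-81861896 lay in the windows of Ccl2, Ccl7 and Ccl11, ligands of inflammatory monocytes and eosinophils, and was 2301 bp from the start of Ccl7. Ccl19 and Ccl21a, ligands of Ccr7, shared 1 peak, as did Ccr1 and its relative Ccr1l1. Ccr2, the monocyte receptor, had 1 peak in its window. For Cxcl16, Ccl27a, Cxcl9 and Xcr1 the only peak lay at the start of a neighbour, which was Med11 for Cxcl16, Sdad1 for Cxcl9 and Fyco1 for Xcr1. Ccl22, Cxcl10 and Cxcl14 had 1 distal peak each, at 9616, 9191 and 16407 bp from the start. The peak counted for Cxcl10 lay in an intron of Art3 and was nearest to the start of Cxcl11, at 4897 bp.

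**Figure D2:**
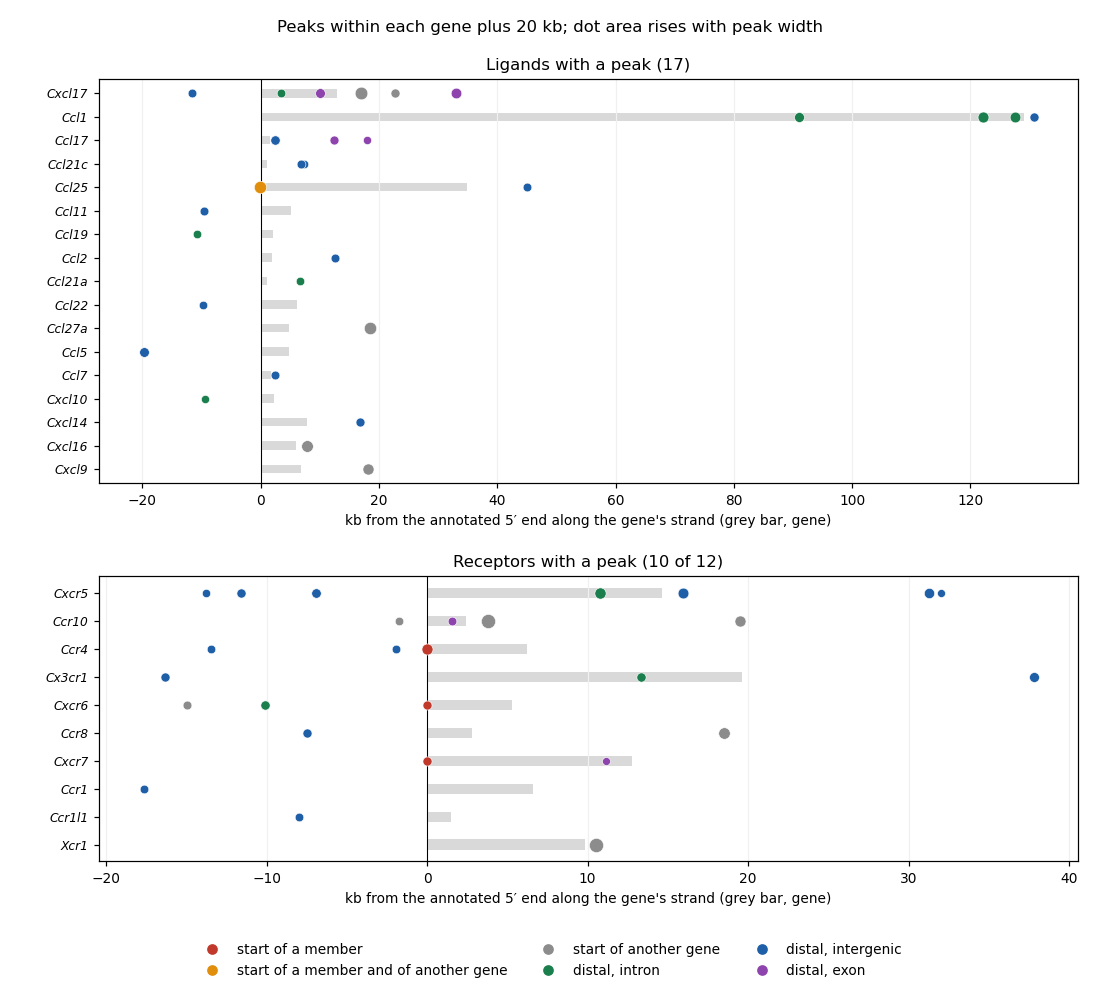
Peaks within 20 kb of the 17 ligand genes and of 10 of the 12 receptor genes that had any, by distance in kb from the annotated 5′ end along the gene's strand (horizontal axis). Grey bars are genes, dots are peaks coloured by class, and dot area rises with width. Of the receptors shown, Cxcr7, Ccr4 and Cxcr6 have a red dot at 0 kb, and Cxcr5 has 7 peaks with none at 0 kb.

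No peak lay in the window of the other 25 genes, 20 ligands and 5 receptors. The receptors were Cxcr1 and Cxcr2 of neutrophils, Ccr3 of eosinophils, Ccr6, which binds Ccl20, and Cxcr3 of activated T cells. The CC ligands were Ccl3, Ccl4, Ccl6, Ccl8, Ccl9, Ccl12, Ccl20, Ccl21b, Ccl24, Ccl26 and Ccl27b. The CXC ligands were Cxcl1, Cxcl2, Cxcl3, Cxcl5, Cxcl12, Cxcl13 and Cxcl15, most of them known to attract neutrophils. Xcl1 and Cx3cl1 were also without a peak.

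The distance from a start to the nearest peak needs no window, and its median over the family was 18522 bp (range 0 to 262571 bp). Over all coding genes the median was 2596 bp, and over CpG-poor coding genes it was 19238 bp. Receptors had a median of 9778 bp and ligands one of 24467 bp. For 12 of the 54 genes the nearest peak was more than 50 kb away, and 11 of these were ligands. The exception was Cxcr3 on the X chromosome at 57316 bp. The nearest peak was also more than 50 kb away for 5537 of 22284 coding genes and for 4636 of the 12442 with a CpG-poor start. Such distances were thus not particular to the family. Cxcl12, the stromal ligand of Cxcr4 and Cxcr7, was the farthest at 262571 bp although its start is CpG-rich. It was followed by Ccl20 at 215821 bp and Cxcl13, the ligand of Cxcr5, at 204438 bp. Cxcl5, Cxcl3 and Cxcl15 lay at 171557, 144840 and 136409 bp, and Ccl3 and Ccl4 at 98772 and 90885 bp. At the near end, 5 genes without a start peak had a peak between 1 and 5 kb, namely Ccl1, Ccr10, Ccl17, Ccl7 and Cxcl17. The same held for 1516 of 22284 coding genes and for 1159 of the 12442 with a CpG-poor start.

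**Figure D3:**
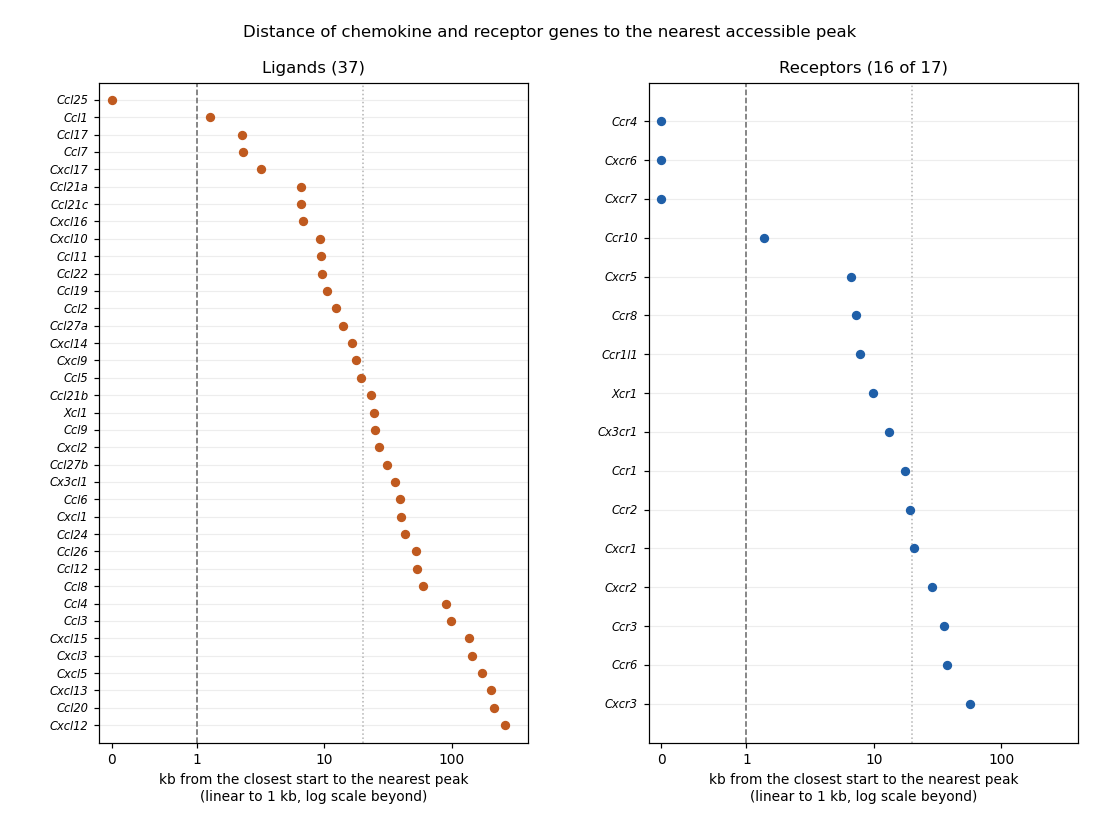
Distance in kb from the closest annotated start to the nearest peak (horizontal axis, linear to 1 kb and logarithmic beyond) for 37 ligands (left) and 16 of the 17 receptors (right). Dashed and dotted lines mark 1 and 20 kb. Points run from 0 to 262571 bp in ligands and from 0 to 57316 bp in receptors.

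Distances were also set side by side for receptors and ligands known to bind each other. Ccr4 had a start peak, while its ligands Ccl17 and Ccl22 had none and their nearest peaks lay 2257 and 9616 bp from a start. For Cxcr6 and its ligand Cxcl16 the distances were 0 and 6860 bp, and for Cxcr5 and Cxcl13 they were 6659 and 204438 bp. In the pair Ccr6 and Ccl20 both were far from a peak, at 37813 and 215821 bp. In other pairs the ligand was nearer to a peak, with 1281 bp for Ccl1 and 7297 bp for Ccr8, and 9191 bp for Cxcl10 and 57316 bp for Cxcr3. The peak counted for Cxcl10 lay closer to the start of Cxcl11. These pairs were picked by known binding after the values had been seen and carry no test.

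The genes form clusters, defined here as runs of at least 3 members with gaps of at most 500 kb. In the CC ligand cluster from Ccl2 to Ccl1 on chromosome 11, which spans 270 kb, 5 peaks were found, and 4 of them lay at Ccl1. A stretch of 126 kb without a peak covered Ccl11, Ccl12 and Ccl8. The neighbouring cluster from Ccl5 to Ccl4 spans 139 kb and held 1 peak, and 114 kb without a peak covered Ccl9, Ccl6, Ccl3 and Ccl4. Their densities of 18.5 and 7.20 peaks per Mb compare with 22.3 for chromosome 11. On chromosome 5, the 147 kb from Cxcl5 to Cxcl2 held 0 peaks, where the chromosome has 13.4 per Mb, or few peaks in a stretch of this length. How often stretches of these lengths lack a peak elsewhere in the genome was not counted. The 66.4 kb from Ccl22 through Cx3cl1 to Ccl17 on chromosome 8 held 0 peaks, where the chromosome has 12.6 per Mb, or under 1 peak in a stretch of this length, and the peaks counted for Ccl22 and Ccl17 lay outside its ends.

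On chromosome 9, receptor genes lie close together from Cxcr6 through Xcr1, Ccr1, Ccr1l1 and Ccr3 to Ccr2. Along these genes lay the start peak of Cxcr6, the Fyco1 start peak and 1 distal peak upstream of Ccr1l1. A stretch of 140 kb without a peak covered Xcr1, Ccr1 and Ccr1l1 in part or whole. The cluster on chromosome 4 from Ccl21c to Ccl21a spans 396 kb and held 7 peaks, all distal, or 17.7 per Mb against 13.2 for the chromosome. This cluster includes repeated sequence. Near-identical copies of the start region elsewhere in the genome were found for 6 genes, Ccl19, Ccl21a, Ccl21b, Ccl21c, Ccl27a and Ccl27b, counting matches of 95% identity or more that span 80% or more of the 1 kb on either side. Since the authors kept 1 alignment per read, peaks at these genes are uncertain, and none of the 6 had a start peak.

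**Figure D4:**
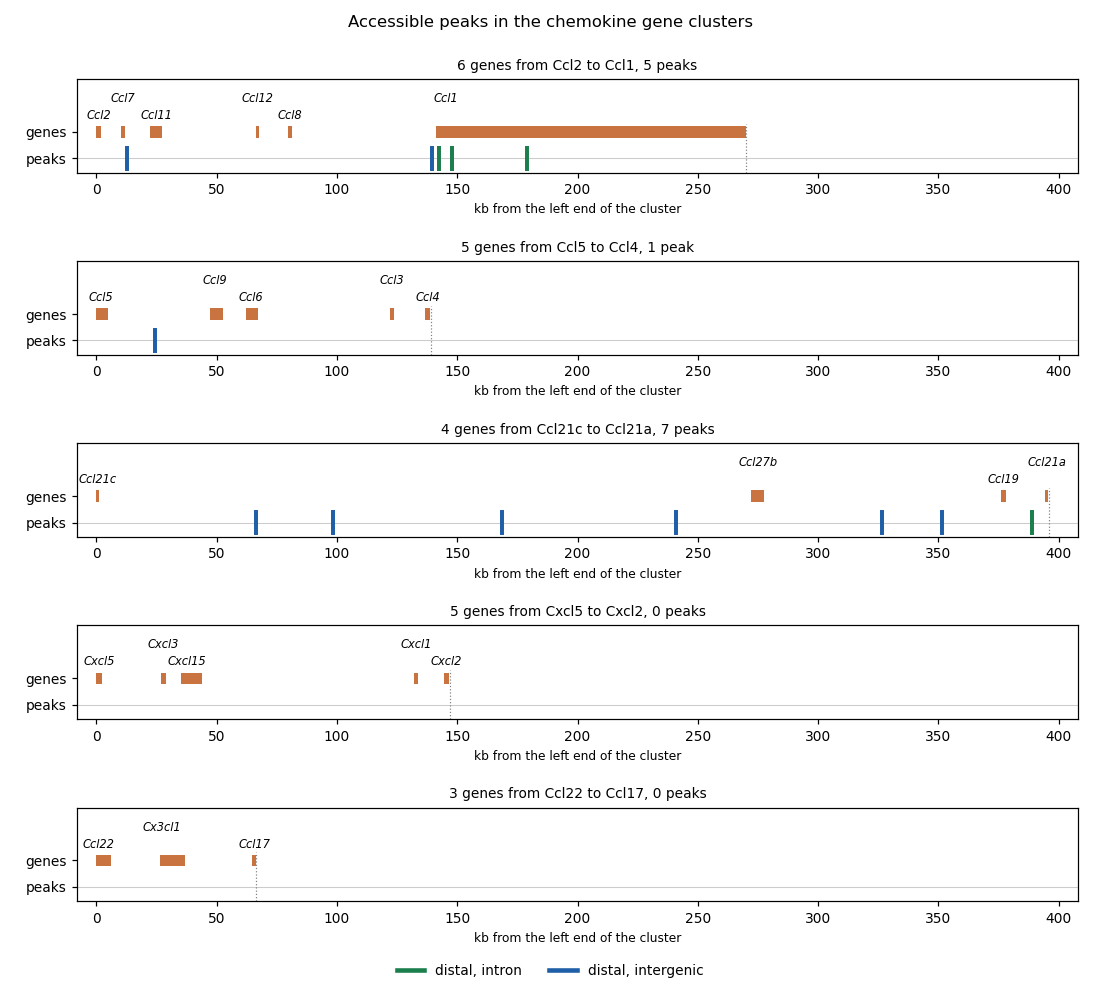
The 5 clusters of ligand genes, drawn to 1 scale in kb from the left end of each. Upper boxes are genes, lower bars are peaks coloured by class, and dotted lines mark the end of each cluster. The 5 genes from Cxcl5 to Cxcl2 have 0 peaks, and the 4 from Ccl21c to Ccl21a have 7.

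The motif of RBPJ was then searched, because RBPJ is the factor through which Notch acts. TGGGAA was present in 16 of the 52 peaks, 30.8% (19.9 to 44.3%), compared with 42.5% of all peaks, which lies inside the interval. Peaks of the family were narrower, with a median of 431 bp against 551 bp, so that less sequence was searched in each. Within distal peaks the shares were 30.6% (18.0 to 46.9%) and 39.2%. In the central 200 bp of the peaks, a stretch equal for all, they were 7.69% (3.03 to 18.2%) and 15.3%. The looser form was found in the central 200 bp of 13.5% (6.68 to 25.3%) of peaks of the family and of 26.9% of all peaks. In distal peaks these shares were 13.9% (6.08 to 28.7%) and 30.4%, so that for the looser form the share of the list lay outside the interval in both. The start peaks of Cxcr7, Ccr4 and Cxcr6 did not hold the word, and the shared Ccl25 and Elavl1 peak held it 2 times.

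Of the 9 distal peaks that lay inside genes of the family, 4 held TGGGAA, with 6 occurrences in Ccl1, Cxcl17 and Cxcr5. Of all distal peaks of the list, 39.2% held the word. The 6 occurrences lay 142 to 306 bp from the centre of their peak, outside its central 200 bp. They were chosen for printing after the peaks had been seen. They are the matches to the Notch pathway's motif in distal peaks within a chemokine or receptor gene as annotated. The Ccl1 peaks of 747 and 568 bp lay inside that gene only through its non-coding transcript. They were 3347 and 34497 bp upstream of the coding start, and the peak of 568 bp held 2 of the occurrences. Each is given with 20 bases on either side, 5′ to 3′ on the strand that carries the word (NCBIM37), and capitals mark TGGGAA.

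Ccl1, chr11:81991352-81991397, plus strand: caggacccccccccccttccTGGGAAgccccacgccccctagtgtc
Ccl1, chr11:82027932-82027977, minus strand: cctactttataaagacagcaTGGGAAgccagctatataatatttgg
Ccl1, chr11:82028304-82028349, minus strand: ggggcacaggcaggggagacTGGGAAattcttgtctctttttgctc
Cxcl17, chr7:26187741-26187786, plus strand: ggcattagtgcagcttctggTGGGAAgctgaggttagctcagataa
Cxcr5, chr9:44323481-44323526, plus strand: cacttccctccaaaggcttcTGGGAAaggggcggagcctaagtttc
Cxcr5, chr9:44323514-44323559, minus strand: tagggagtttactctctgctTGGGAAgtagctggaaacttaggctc

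In the Cxcr5 intron the words lay on opposite strands, facing each other with 27 bases between them, and 262 and 230 bp from the centre of the peak. This spacing is wider than the one the paper gives for paired head-to-head RBPJ motifs. In the farther Ccl1 peak both words lay on the same strand, 366 bases apart. Binding of RBPJ at these positions was not analysed here.

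Of the other motifs, the E-box CAGCTG was found in 25.0% (15.2 to 38.2%) of peaks of the family and in 42.7% of all peaks, and RUNX in 36.5% (24.8 to 50.1%) and 41.4%. GATA was found in 28.8% (18.3 to 42.3%) and 20.2%, and AP-1 in 19.2% (10.8 to 31.9%) and 14.2%. NF-kB was at 19.2% and 17.6%, ETS at 26.9% and 25.9%, and SP at 32.7% and 38.7%. Of these 7 motifs, the E-box was the one for which the share of all peaks lay outside the interval of the family. In the central 200 bp the E-box shares were 11.5% (5.40 to 23.0%) and 21.3%, where the interval includes the share of all peaks. In distal peaks they were 27.8% (15.8 to 44.0%) and 43.9% over the whole peak. In the central 200 bp of distal peaks they were 11.1% (4.41 to 25.3%) and 25.7%, where the share of the list lay just outside the interval.

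Other genes of the pathway were read in the same way, from lists chosen by function. Ccr7, Ccr9 and Cxcr4, the homing receptors of developing T cells that the rule left out, all had a start peak, of 525, 338 and 2106 bp. Of genes for proteins that carry the signal, 15 of 16 had a start peak, where all coding genes were at 47.0%, among them the G protein subunit Gnai2, the phosphoinositide 3-kinase subunit Pik3cg and the Rac activator Dock2, and Gng2 had none. Of proteins that end it, 9 of 10 had a start peak, among them the arrestins Arrb1 and Arrb2, and Rgs1 had none. Of these starts 9 of 16 and 7 of 10 were CpG-rich, compared with 44.2% over all coding genes, and CpG-rich coding genes had a start peak in 76.2%. No test of these lists was made. The chemokines Pf4 and Ppbp, named otherwise, had no start peak, and neither had the 5 atypical or related receptors Darc, Ccbp2, Ccrl1, Ccrl2 and Cmklr1.

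For comparison, 2 other families of immune mediators were counted. Of 85 genes named Il and a number, 16 had a start peak, 18.8% (11.9 to 28.4%), and of the 75 with a CpG-poor start 14.7%. Of 31 TNF superfamily ligands and receptors 18 had one, 58.1% (40.8 to 73.6%), and of the 24 with a CpG-poor start 54.2%. The interval of the chemokine and receptor genes (4.02 to 19.9%) overlapped that of the interleukin group and lay below that of the TNF superfamily. The sets are unlike, since Ccr7, Ccr9 and Cxcr4, which had start peaks, were left out here and no gene was left out there.

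The cell type on the label was checked with marker genes. Of 14 pre-T cell markers found by symbol, 11 had a start peak, among them Rag1, Rag2, Cd3e, Lck, Bcl11b and Notch1, and those without were Dntt, Cd3d and Il2ra. Of 8 B cell markers 0 had one, of 8 myeloid markers 1 (Fcgr3), and of 9 stromal markers 3 (Col1a1, Pdgfrb and Pecam1). These counts compare with 47.0% of all coding genes and 23.9% of those with a CpG-poor start, and the stromal count lay above the latter. Of the pre-T cell markers 2 had a CpG-rich start by the 5′ end of the gene, and of the stromal markers 0. Some start peaks, such as those of Notch1, lay at other starts, whose composition was not measured.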

How the data were processed

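A commercial kit was used for ATAC-Seq of 3 DMSO and 3 GSI libraries from Beko cells. Following the study's methods and the submitters' processing notes, the authors trimmed reads, aligned them to mm9 with HISAT2 2.2.1 with 1 alignment kept per read, and discarded duplicates (Picard). Peaks were called per library with MACS2 without input and combined with MSPC, and those present in 3 of 6 libraries and outside blacklisted regions were kept. The deposited list gives chromosome, start and end of each peak, and its score column is 0 throughout, so it was not used. Peaks open in 1 treatment may be included. A shift of read ends for the transposase is not given in the sources used here, and depth per peak is unknown.

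Peaks were matched to GENCODE vM1 on NCBIM37 (mm9), and 0 lay outside its chromosomes. Coordinates are counted from 1. Overlapping annotation entries of the same symbol were merged, which makes Ccl25 1 gene. Distances run from the edge of a peak to a start. Members are accounted for by name, and positions are printed for start peaks and the 12 widest distal peaks, with others chosen after their values were seen. Results of 1 member and of 1 neighbouring gene are counted but not reported here by name. Members and lists were chosen with earlier results of these data known. Shares are set beside those of all coding genes without a test. Copies were searched with minimap2 2.31. Analyses used Python 3.11.15 and numpy 2.4.6, and the assignment of peaks was tested on simulated data. Alternatives varied distances, starts, peak width, symbols, shared peaks and motif form.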

Additional observations from a re-analysis of the deposited data

How the results depend on the processing

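No paired analysis was possible because all libraries were merged into 1 list without values of their own, which also meant that no replicate could be left out and no peak threshold changed. Of the alternatives, 18 values stayed within the counting interval or 1.5 times of the reported count, and 9 moved. With peaks of at least 500 bp, the share of genes with a start peak was 3.70% (Ccr4 and Ccl25, with 43.8% of coding genes), the share with a peak within 20 kb was 24.1% (62.5% of coding genes), the number of peaks was 20 and the median distance 43310 bp. Counting the gene body alone gave 20.4% (54.0% of coding genes), and a flank of 50 kb gave 77.8% (77.2% of coding genes) with 101 peaks, so the difference from all coding genes within 20 kb depends on the window. The RBPJ motif was in 53.8% of peaks in its looser form (62.5% of all peaks) and in 7.69% within the central 200 bp. Start peaks were at 7 genes within 2 kb and 10 within 5 kb (18.5%, against 53.8% of coding genes). Without peaks at another gene's start 4 genes were left (7.41%, against 34.4%). Leaving out the 6 genes with near-identical copies gave 5 of 48, and this alternative, the counting of each annotation entry (10.9%) and the span of coding transcripts alone were chosen after seeing the data.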

Other observations

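The 300 bases around the 5′ start of all 54 genes, with or without a peak, were searched for the same motifs, independently of accessibility. The RUNX word TGTGGT was found at 18 genes (33.3%), compared with 15.0% of all coding genes and 19.5% of those with a CpG-poor start. NF-kB matches were found at 10 genes (18.5%, against 9.43 and 8.08%) and AP-1 matches at 9 (16.7%, against 6.51 and 9.28%). The SP word GGGCGG was found at 9 genes (16.7%, against 44.9 and 21.0%), and ETS at 4 (7.41%, against 20.7 and 10.2%). The E-box was found at 20.4% of the genes (against 16.4 and 18.7%), GATA at 11.1% (against 9.09 and 13.6%), TGGGAA at 24.1% (against 23.3 and 27.3%) and the looser RBPJ form at 33.3% (against 37.2 and 45.8%). Several members are duplicated genes with similar starts, so these counts are not independent, and no test was made.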
